A study of Homo sapiens with 60 samples.

Results

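Yijung-tang is a decocted herb mixture used in Korean medicine for disorders of digestion, made from ginseng, dried ginger, Atractylodes rhizome and licorice. Its highest dose was compared with vehicle in A549, an established human lung adenocarcinoma line that carries an inactivating KEAP1 mutation. The high-dose group held 3 libraries from cells kept for 24 h with 500 µg/mL of the hot-water extract. The vehicle group held 3 libraries from cells given DMSO for the same time. These 6 of the 60 libraries in the series were chosen by their labels alone, and every gene with enough counts was described. For reference, 3 libraries each of the 20 and 100 µg/mL doses of Yijung-tang and of 500 µg/mL Banhasasim-tang, a related mixture, were used. The DMSO content of vehicle is 0.1% by the sample labels but 2% by the text on the design. Extract samples carry no DMSO label, so an effect of the extract and of DMSO cannot be told apart against vehicle. All titles carry the same batch name. The sample codes of vehicle begin differently from those shared by Yijung-tang and Banhasasim-tang, and what the codes stand for is not stated. Whether the replicates were separate cultures is not stated, so p-values measure only the spread between libraries, which may be technical. That spread was estimated jointly from 57 libraries in 19 groups, which include other extracts, and not from these 6 alone.

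In cells of this kind the RAS-RAF-MEK-ERK cascade switches on immediate-early genes, which encode transcription factors of the AP-1 and EGR families, and then phosphatases and adaptors that feed back on the cascade. A separate pathway, the integrated stress response, acts through the transcription factors ATF4 and CHOP and raises genes of amino acid supply and of stress signalling. A549 cells also express genes that are better known from liver and gut epithelium, such as those for the fibrinogen chains, under nuclear receptors and homeobox factors that include HNF4A. The last group is of interest because it holds many of the secreted proteins of the line.

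Total expected counts ran from 18894751 to 26324279 in vehicle and from 17793655 to 30188211 at the high dose. Mitochondrially encoded genes took 7.91% to 8.54% of the counts in vehicle and 9.21% to 9.31% at the high dose, without overlap. High-dose library 2 stood apart in its balance of long and short transcripts. The mean log2(CPM + 1) of genes with transcripts over 6 kb lay 0.873 above that of genes under 1.5 kb in this library, against 1.23 and 1.35 in the other two and 1.22 to 1.40 in vehicle. The high-dose libraries were also less alike. Of genes at 10 or more CPM (counts scaled to library size), the highest of the 3 libraries was over 1.5 times the lowest for 370 of 9425 genes (3.93%) at the high dose and for 24 of 9417 (0.255%) in vehicle. Values that rest on library 2 are therefore given without it where they move. Of 10 blood and endothelial markers PTPRC, CD3E, LYZ and HBB were at 0 in all 6 libraries and 8 were under 1 CPM. The summed level of the 10 was 6.44 to 8.64 CPM in vehicle and 12.5 to 15.3 CPM at the high dose. Of the 2 tested, CD68, a lysosomal protein of macrophages and other cells, was higher (5.36 ± 1.3 CPM in vehicle and 11 ± 1.69 CPM at the high dose, log2 fold 1.03 ± 0.24, adjusted p = 0.00306). The mean of CD68 made up most of the summed level in both groups. A549 is a cell line, and whether the libraries held RNA of other cells was not tested. Of 17 markers of A549 and alveolar type II cells, 8 were under 1 CPM in all 6 libraries. The surfactant gene SFTPA1 was the 1 marker at 0 in all of them. The summed level of the 17 was 13227 to 13592 CPM in vehicle and 11310 to 13537 CPM at the high dose. Of the 10 tested 0 were called.

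Across the transcriptome, the high dose moved a modest number of genes by modest amounts. Of 17268 genes tested, 1225 (7.09%) passed an adjusted p of 0.05 in edgeR's quasi-likelihood test. Of these 650 were higher (3.76%) and 575 lower (3.33%). The median size of a called difference was 0.45 on the log2 scale. A difference of at least 1 on that scale was seen for 136 genes (0.788%), 56 of them higher and 80 lower. The 3 high-dose libraries lay wholly above or below the 3 vehicle libraries for 1192 of the called genes, and for 24.0% of all genes tested. The count of calls fell to 741 without high-dose library 2 and to 792 without vehicle library 1. Calls numbered 622 with the 6 libraries fitted alone and 816 with no low-count filter. DESeq2 called 1369 genes, 1168 of them shared with the same sign.

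**Figure D1:**
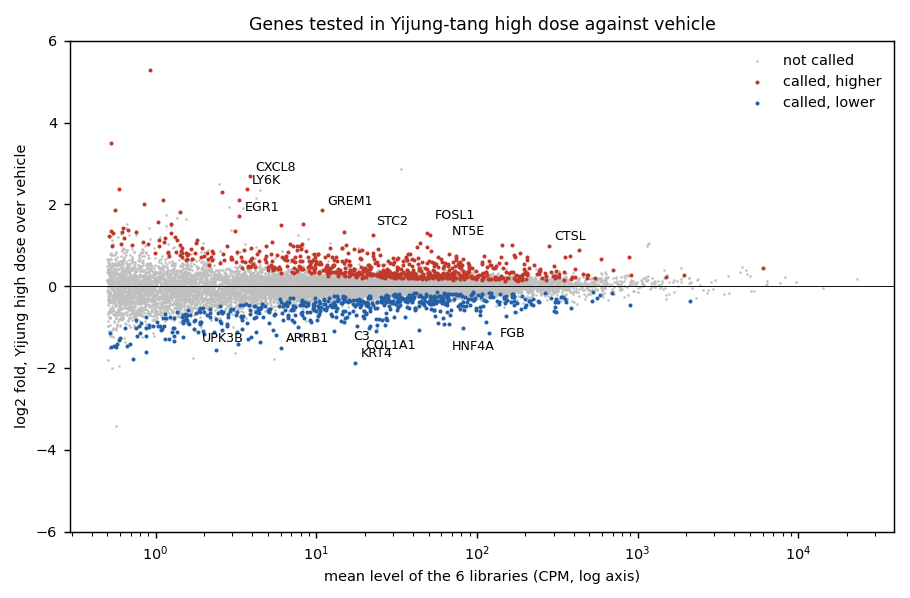
Log2 fold of Yijung-tang high dose over vehicle (y axis) against the mean level of the 6 libraries in CPM (x axis, log scale) for the 14986 genes at 0.5 CPM or more, with called genes in colour; 2 genes that were not called lie outside the axis. CXCL8, LY6K and GREM1 stand highest among the genes labelled, and KRT4 lowest.

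Calls also differed by transcript length. Among genes whose longest annotated transcript was under 1.5 kb, 70 were higher and 18 lower. Among genes over 6 kb, 61 were higher and 141 lower. Without high-dose library 2 the counts were 28 and 15 for the short genes and 51 and 55 for the long ones. With the length balance of each library as a covariate they were 127 and 120 for the short genes and 327 and 273 for the long ones, out of 2763 calls in all. Of 125 genes named by rule, 124 had the same call with that covariate, and the exception was NOG.

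**Figure D2:**
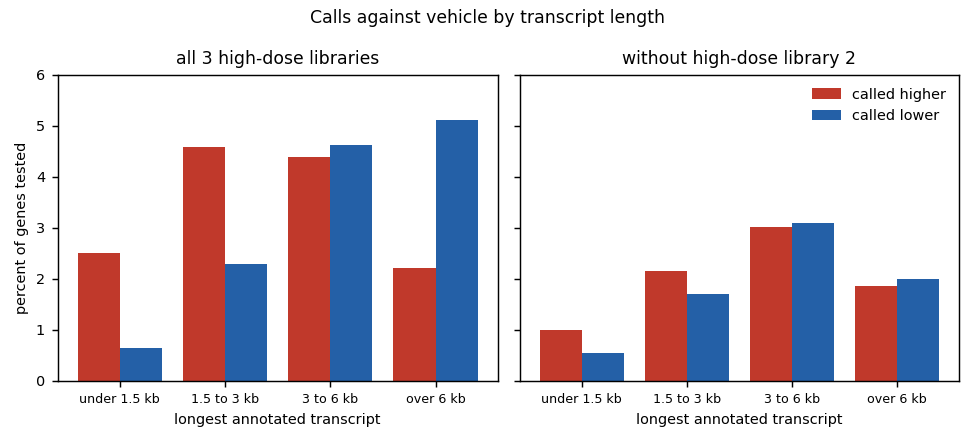
Percent of genes tested (y axis) that were called higher or lower at the high dose, by the length of the longest annotated transcript (x axis), with all 3 high-dose libraries and without library 2. With all libraries short genes were mostly called higher (70 against 18) and long genes lower (61 against 141), and without library 2 the long genes were nearly even (51 and 55).

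Immediate-early transcription factor genes rose. Of 15 tested members of a list of AP-1 and EGR genes 10 were higher and 1 lower, with a median log2 fold of 0.40 where the median of all genes was 0.002. The count was also 10 without high-dose library 2. FOSL1, which encodes the AP-1 subunit FRA-1, had the smallest p of the list. Its gene (ENSG00000175592) lies on chromosome 11 (GRCh38, 65892049 to 65900573, minus strand). It stood at 28.9, 26.7 and 29.6 CPM in the vehicle libraries and at 69.4, 76.7 and 63.7 CPM at the high dose. The lowest high-dose library was far above the highest vehicle library. The log2 fold was 1.3 ± 0.08 (SE, n = 3 and 3; adjusted p = 2.32e-17), from 28.4 ± 1.54 to 69.9 ± 6.52 CPM (SD).

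EGR1, a zinc-finger factor induced within minutes of growth factor signals, stood at 1.45, 1.73 and 1.47 CPM in vehicle and at 5.03, 5.27 and 4.99 CPM at the high dose. The groups were far apart for a gene of low level, and the log2 fold was 1.71 ± 0.18 (adjusted p = 2.1e-09). FOSB, a further AP-1 subunit, went from 0.733 to 1.03 CPM in vehicle to 3.90 to 4.94 CPM, a log2 fold of 2.31 ± 0.26 (adjusted p = 7.7e-09). MYC, the growth-promoting factor, rose by far less, from 141 ± 8.91 to 177 ± 6.73 CPM (log2 fold 0.33 ± 0.05, adjusted p = 3.59e-06). The exception was MAFK, a small MAF protein that pairs with NRF2 and BACH factors. It was at 191, 188 and 186 CPM in vehicle and at 109, 111 and 124 CPM at the high dose, and fell by 0.72 ± 0.06 (adjusted p = 1.38e-12).

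The gene for EGR1 lies on chromosome 5 (GRCh38, 138465490 to 138469315, plus strand). Its upstream window is shown because it carries CArG boxes, the letters that serum response factor reads next to ERK-activated partners. The window ends at the base before the RefSeq start (GRCh38.p14, chr5:138465229-138465478, plus strand), and capitals mark the boxes, which begin 105 and 83 bases before that start.
EGR1: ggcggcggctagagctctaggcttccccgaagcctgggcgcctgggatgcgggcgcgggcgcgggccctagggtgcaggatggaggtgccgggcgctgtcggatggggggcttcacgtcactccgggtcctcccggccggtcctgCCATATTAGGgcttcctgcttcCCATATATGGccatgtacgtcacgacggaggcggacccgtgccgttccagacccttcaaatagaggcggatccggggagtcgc
A CArG box stood in 1.16% of 35116 RefSeq windows of 250 bases. Of the 10 risen immediate-early genes 7 had a window, and EGR1 was the 1 gene among them with a box. No entry was held for FOSL1.

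Feedback genes of the ERK cascade rose with them. Of 18 tested, 11 were higher and 0 lower (median log2 fold 0.43), and 11 were also higher without high-dose library 2. These are often read as a record of the cascade's output. DUSP4, a nuclear phosphatase of ERK, stood at 131, 131 and 139 CPM in vehicle and at 241, 224 and 242 CPM at the high dose. Its 3 high-dose libraries differed little, and the log2 fold was 0.82 ± 0.04 (adjusted p = 2.38e-18). DUSP6, the cytoplasmic ERK phosphatase, stood at 9.67, 10.0 and 10.1 CPM in vehicle and at 20.1, 19.9 and 16.7 CPM (log2 fold 0.93 ± 0.09, adjusted p = 1.17e-10). PHLDA1, a growth-factor-induced gene with a pleckstrin homology-like domain, went from 96.2 ± 0.894 to 192 ± 14.7 CPM (1.00 ± 0.06 on the log2 scale, adjusted p = 1.44e-17). EPHA2, an ephrin receptor whose gene is an ERK target, rose by 0.44 ± 0.05 (adjusted p = 4.89e-08). The members that were not called included CCND1, which encodes cyclin D1, at 462 to 498 CPM in vehicle and 434 to 516 CPM at the high dose (log2 fold -0.00 ± 0.09, adjusted p = 0.994).

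Among the orphan receptors and Kruppel-like factors, which are also immediate-early genes, 4 of 11 were higher and 1 lower. NR4A2 stood at 3.27 to 3.95 CPM in vehicle and 5.76 to 6.56 CPM at the high dose (log2 fold 0.74 ± 0.15, adjusted p = 0.000398). Its relative NR4A3 went the other way, from 7.49 to 8.83 CPM down to 5.41 to 5.71 CPM (-0.59 ± 0.14, adjusted p = 0.00479). NR4A3 was named after its values were seen, as the lone fall of that list.

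**Figure D3:**
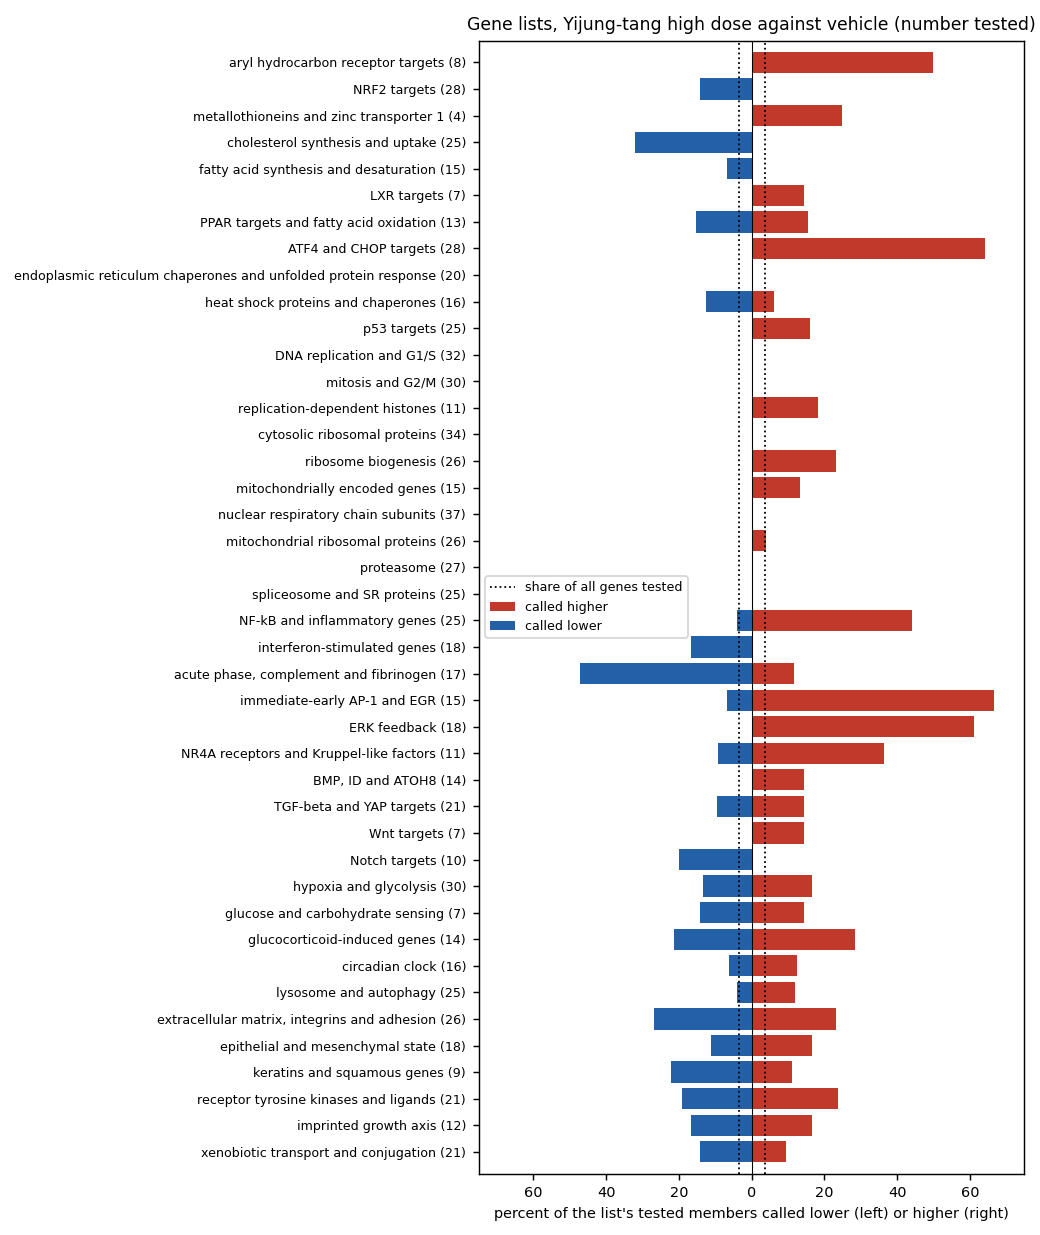
Percent of each list's tested members (number in parentheses) called higher (right) or lower (left) at the high dose against vehicle, with dotted lines at the 3.76% and 3.33% of all genes. Immediate-early, ATF4 and CHOP, and ERK feedback genes lean to the right with 10 of 15, 18 of 28 and 11 of 18 higher, and acute phase and cholesterol genes to the left with 8 of 17 and 8 of 25 lower.

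The largest called rise of a gene with 5 CPM or more at the high dose was that of CXCL8, which encodes interleukin-8, a chemokine that draws in neutrophils. It stood at 1.03, 1.11 and 0.943 CPM in vehicle and at 6.87, 7.46 and 5.65 CPM at the high dose. All high-dose libraries were several times above all vehicle libraries. The fold was 6.46, or 2.69 ± 0.21 on the log2 scale (adjusted p = 3.81e-13). In the list of NF-kB and inflammatory genes that holds it, 11 of 25 members were higher and 1 lower (median 0.32), and 8 were higher without high-dose library 2. CXCL5, a chemokine of the same receptor, was at 81.3, 83.5 and 83.5 CPM in vehicle and at 134, 142 and 141 CPM (log2 fold 0.75 ± 0.05, adjusted p = 6.53e-15). BIRC3, an inhibitor of apoptosis that takes part in NF-kB signalling, went from 38 to 40.2 CPM to 58.3 to 58.7 CPM (0.57 ± 0.09, adjusted p = 3.88e-06). RELB, an NF-kB subunit, rose by 0.70 ± 0.11 (adjusted p = 5.61e-06). The member that fell, NFKBIZ, encodes a nuclear co-regulator of NF-kB and was named after its values were seen. It changed by -0.44 ± 0.11 (adjusted p = 0.00506), and it was not called without high-dose library 2. Interleukin-6 was at 0 to 0.135 CPM in the 6 libraries and was not tested.

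CXCL8 lies on chromosome 4 (GRCh38, 73740506 to 73743716, plus strand). The stretch before it is shown because it holds the letters TGANTCA, which AP-1 dimers bind (GRCh38.p14, chr4:73740319-73740505, plus strand). Capitals mark the match, which begins 137 bases before the RefSeq start.
CXCL8: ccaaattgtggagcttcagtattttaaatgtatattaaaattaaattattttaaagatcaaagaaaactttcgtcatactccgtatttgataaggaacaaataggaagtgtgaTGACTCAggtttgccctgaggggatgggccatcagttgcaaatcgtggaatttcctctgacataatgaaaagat
These letters, which read the same on both strands, stood in 6.57% of the 35116 windows. CXCL8 was the 1 match among 10 risen NF-kB and inflammatory genes with a window. No match was found among the 7 risen immediate-early genes or the 7 risen ERK feedback genes that had a window.

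Targets of the aryl hydrocarbon receptor, the sensor of planar aromatic compounds, rose in part. Of 8 tested, 4 were higher and 0 lower. TIPARP, an ADP-ribosyltransferase that limits the receptor, was at 33.6, 33.1 and 33.5 CPM in vehicle and at 65.4, 62.4 and 65.4 CPM at the high dose (log2 fold 0.95 ± 0.11, adjusted p = 1.7e-08). ALDH3A1, an aldehyde dehydrogenase, went from 676 ± 53.7 to 1105 ± 87.0 CPM (0.71 ± 0.12, adjusted p = 4.81e-05). CYP1B1, a monooxygenase, went from 53.9 ± 1.17 to 79.2 ± 5.73 CPM (0.55 ± 0.10, adjusted p = 0.000186). CYP1A1, the receptor's best known target, stayed low, at 0.524 to 1.11 CPM in vehicle and 1.8 to 2.05 CPM at the high dose (1.12 ± 0.21, adjusted p = 0.000238). With the 6 libraries fitted alone CYP1A1 was not called (adjusted p = 0.0527).

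Targets of ATF4 and CHOP rose without the chaperones of the endoplasmic reticulum. Of 28 tested targets, 18 were higher and 0 lower, with a median log2 fold of 0.36, and called rises ran from 0.21 to 1.06. Without high-dose library 2, 12 were higher. Of 20 chaperone and unfolded protein response genes 0 were called in either direction, with folds from -0.21 to 0.18. HSPA5, the main chaperone of that compartment, was at 614 to 662 CPM in vehicle and at 596 to 649 CPM at the high dose (-0.04 ± 0.05, adjusted p = 0.745). The difference between both lists was not tested.

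STC2, a secreted glycoprotein induced by ATF4, had the largest rise of these targets. It stood at 28.2, 28.9 and 28.4 CPM in vehicle and at 59.1, 56.1 and 63.3 CPM at the high dose (1.06 ± 0.08, adjusted p = 2.57e-13). PPP1R15A, which restores protein synthesis by dephosphorylating eIF2α, went from 27.3 ± 1.90 to 44.9 ± 5.01 CPM (0.72 ± 0.07, adjusted p = 2.68e-11). ASNS, asparagine synthetase, was at 118, 130 and 121 CPM in vehicle and at 175, 202 and 167 CPM (0.56 ± 0.07, adjusted p = 1.36e-07). PSAT1, an enzyme of serine synthesis, rose by 0.41 ± 0.05 (adjusted p = 2.8e-07). GDF15, a stress cytokine, rose by 0.68 ± 0.14 (adjusted p = 0.000526). CHAC1, a glutathione-degrading enzyme chosen after its values were seen, went from 6.13 to 7.12 CPM to 10.3 to 11.7 CPM (0.73 ± 0.15, adjusted p = 0.000567).

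Stretches of 30 bases near the starts of ASNS (GRCh38.p14, chr7:97872458-97872487, minus strand) and CHAC1 (chr15:40953251-40953280, plus strand) are shown because they hold the letters TGATGNAA, the composite element that ATF4 and C/EBP proteins share. The match begins 68 bases before the RefSeq start of ASNS and 209 bases before that of CHAC1, where it reads on the opposite strand. Capitals mark it.
ASNS: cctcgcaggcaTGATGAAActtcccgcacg
CHAC1: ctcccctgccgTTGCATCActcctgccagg
These letters stood on either strand in 3.14% of the 35116 windows. Of the 18 risen targets 17 had a window, and 3 of these held a match, namely ASNS, ATF3 and CHAC1.

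Several leading rises were of cell-surface and secreted proteins. GREM1, a secreted antagonist of bone morphogenetic proteins, was at 4.76, 4.10 and 5.13 CPM in vehicle and at 16.7, 15.1 and 19 CPM at the high dose. GREM1 (ENSG00000166923) lies on chromosome 15, from 32717974 to 32745107 on the plus strand. The groups were well apart, and the log2 fold was 1.86 ± 0.12 (adjusted p = 8.67e-16). NT5E, which encodes the ectonucleotidase CD73, was at 29.1, 29.1 and 33.4 CPM in vehicle and at 73.5, 73.4 and 69.7 CPM. NT5E (ENSG00000135318) lies on chromosome 6, from 85449584 to 85495791 on the plus strand. All 3 high-dose libraries were alike, and the log2 fold was 1.24 ± 0.08 (adjusted p = 2.52e-16). CDCP1, a membrane protein phosphorylated by SRC kinases, went from 3.77 to 4.54 CPM to 11.5 to 13.4 CPM (1.53 ± 0.16, adjusted p = 7.87e-10). LY6K, a GPI-anchored protein of the LY6 family, went from 1.10 to 1.41 CPM to 5.21 to 7.97 CPM (2.37 ± 0.30, adjusted p = 8.88e-08). MARCHF4, a membrane ubiquitin ligase, was at 13.0 to 13.6 CPM in vehicle and 29.9 to 33.3 CPM at the high dose (1.25 ± 0.10, adjusted p = 1.25e-12).

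The remaining leading rises were RASSF10, CITED4 and UQCRFS1P1. RASSF10, of a family of RAS-association proteins, went from 3.41 ± 0.148 to 7.15 ± 1.14 CPM (1.08 ± 0.13, adjusted p = 4.37e-08). CITED4, a transcriptional co-activator, stood at 16.4, 31.2 and 15.9 CPM at the high dose and at 7.88 to 9.01 CPM in vehicle. Its level was highest in library 2, and without that library it was not called (adjusted p = 0.0712). UQCRFS1P1 is a pseudogene of a respiratory chain subunit, so its counts may be shared with its parent gene. Its vehicle libraries spread from 0.228 to 2.41 CPM, against 4.01 to 6.6 CPM at the high dose (2.12 ± 0.40, adjusted p = 0.000227).

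Lysosome and matrix genes gave single large changes. CTSL, the lysosomal protease cathepsin L, was at 184, 189 and 195 CPM in vehicle and at 372, 388 and 366 CPM at the high dose (0.99 ± 0.08, adjusted p = 3.54e-12). It was 1 of 3 members higher and 1 lower among 25 lysosome and autophagy genes. In the list of matrix proteins, integrins and adhesion molecules 6 of 26 were higher and 7 lower. Without high-dose library 2 these were 6 and 2, without library 1 of the high dose 3 and 7, without vehicle library 1 5 and 3, and without vehicle library 2 3 and 5. ITGA3 and ITGB4, integrin chains of laminin receptors, rose. ITGA3 went from 269 ± 8.41 to 438 ± 13.6 CPM (0.70 ± 0.08, adjusted p = 5.48e-09) and ITGB4 from 27.3 ± 0.616 to 46.7 ± 3.72 CPM (0.78 ± 0.11, adjusted p = 5.95e-07).

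Among the leading falls were 2 collagen chains, COL1A1 and COL4A4. COL1A1, the main chain of type I collagen, was at 32.9, 32.0 and 31.7 CPM in vehicle and at 16.2, 14.1 and 15.3 CPM at the high dose (-1.09 ± 0.08, adjusted p = 8.63e-15). COL4A4, a basement membrane chain, was at 15.2 to 20.3 CPM and then 6.67 to 9.84 CPM (-1.10 ± 0.17, adjusted p = 6.16e-06). SPARC, a collagen-binding glycoprotein, fell by 0.60 ± 0.08 (adjusted p = 1.29e-06). COL1A1 was the 1 called gene among 5 fibroblast markers tested, and the markers' summed level was 38.9 to 40.4 CPM in vehicle and 20.7 to 24.1 CPM at the high dose. COL1A1 made up most of that sum in every library, and 4 of the 8 markers were under 1 CPM in all 6 libraries. A549 is a cell line, and bulk RNA cannot tell a fall in all cells from a fall in a part of them.

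Genes of acute phase, complement and fibrinogen fell. Of 17 tested, 8 were lower and 2 higher, with a median log2 fold of -0.67, and 7 were lower without high-dose library 2. The 3 fibrinogen chains lie side by side on chromosome 4 and are secreted as 1 complex. FGB was at 161, 161 and 172 CPM in vehicle and at 70.6, 84.4 and 67.1 CPM at the high dose (-1.15 ± 0.07, adjusted p = 1.44e-17). FGA was at 145, 140 and 157 CPM and then at 84.4, 85.8 and 71.4 CPM (-0.87 ± 0.07, adjusted p = 1.63e-12). FGG was at 80.5, 76.4 and 89.9 CPM and then at 43.1, 48.2 and 37.7 CPM (-0.93 ± 0.09, adjusted p = 4.36e-11). Every high-dose library was below every vehicle library for all 3 chains. C3, the central complement protein, went from 31.1 ± 1.54 to 18 ± 2.35 CPM (-0.79 ± 0.15, adjusted p = 0.000166). The risen pair were CD55 and CD59, membrane proteins that shield cells from complement. CD55 went from 30.8 ± 2.11 to 45.1 ± 0.798 CPM (0.55 ± 0.07, adjusted p = 3.21e-08).

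HNF4A, a nuclear receptor that sustains liver and gut epithelial genes, was at 111, 107 and 111 CPM in vehicle and at 59.0, 48.4 and 54.4 CPM at the high dose. It was named after its values were seen. The gene (ENSG00000101076) lies on chromosome 20, from 44355700 to 44434596 on the plus strand. The highest high-dose library was far below the lowest vehicle library, and the log2 fold was -1.02 ± 0.08 (adjusted p = 6.52e-14). In a list of 17 such factors, also added after the values were seen, 15 were tested, 2 were lower and 0 higher, and 1 was lower without high-dose library 2. FOXA1 and FOXA2 had log2 folds of 0.11 ± 0.09 (adjusted p = 0.57) and 0.13 ± 0.10 (adjusted p = 0.501).

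The largest called fall of a gene with 5 CPM or more in vehicle was that of KRT4, a type II keratin of mucosal epithelia (ENSG00000170477, chromosome 12, 52806549 to 52814551, minus strand). It was at 29, 25.8 and 27.5 CPM in vehicle and at 8.22, 7.80 and 6.42 CPM at the high dose, a log2 fold of -1.87 ± 0.14 (adjusted p = 1.91e-13). ARRB1, which encodes beta-arrestin 1, an adaptor that silences receptors, was at 8.33 to 9.52 CPM and then 2.74 to 3.73 CPM (-1.50 ± 0.12, adjusted p = 1.63e-12). UPK3B, a uroplakin, was at 5.24 to 7.23 CPM and then 2.33 to 2.74 CPM (-1.36 ± 0.14, adjusted p = 8.71e-10). ANKS4B, a scaffold of brush border microvilli, went from 5.33 ± 0.529 to 2.15 ± 0.443 CPM (-1.3 ± 0.14, adjusted p = 4.11e-09). SLC23A1, an ascorbate transporter, went from 5.80 ± 0.624 to 2.64 ± 0.401 CPM, and CYP4F12, a fatty acid hydroxylase, from 5.51 ± 0.729 to 2.34 ± 0.102 CPM. Their log2 folds were -1.12 ± 0.12 (adjusted p = 3.05e-09) and -1.23 ± 0.13 (adjusted p = 2.18e-09). SLC45A4, a membrane transporter, went from 59.1 ± 2.85 to 28.4 ± 3.39 CPM (-1.06 ± 0.09, adjusted p = 4.71e-12).

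**Figure D4:**
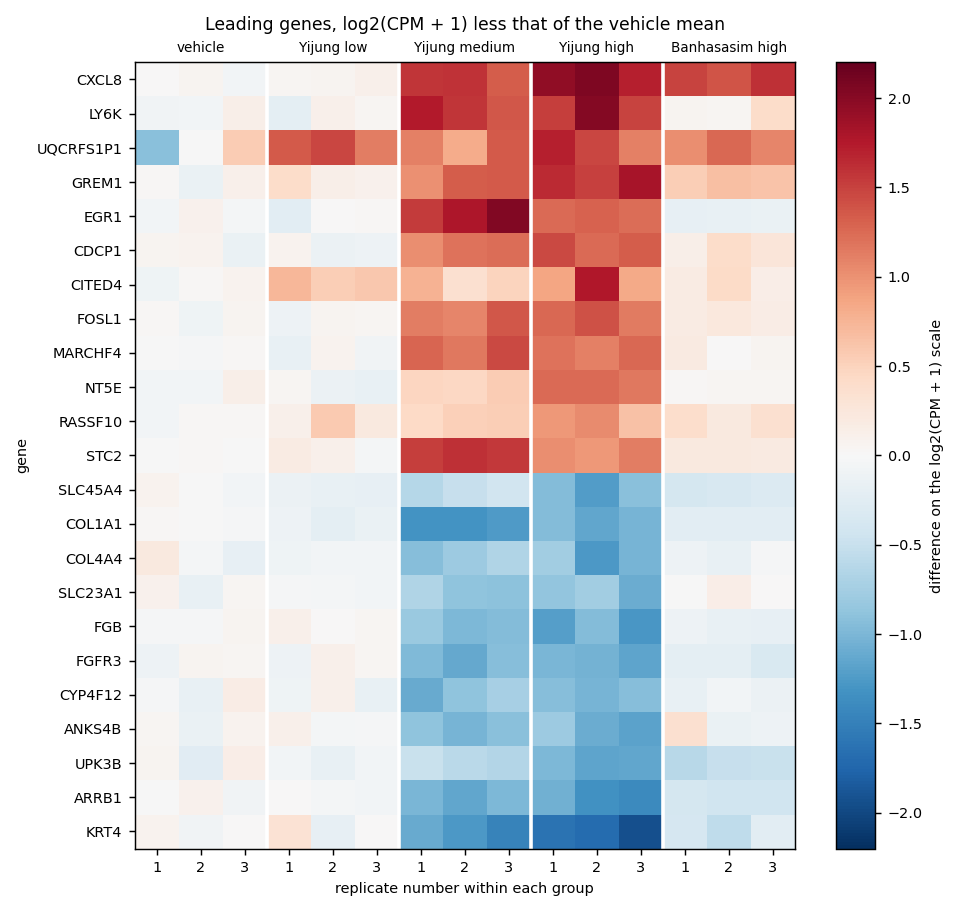
Difference of log2(CPM + 1) from that of the vehicle mean (colour) for the 12 leading rises and 11 of the leading falls of the high dose (rows) in each library of vehicle, the 3 Yijung-tang doses and Banhasasim-tang at 500 µg/mL (columns). The low-dose columns are pale for most genes, UQCRFS1P1 and CITED4 are already raised there, and library 2 holds the highest CITED4 value of the high dose.

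CDH1, which encodes the epithelial adhesion molecule E-cadherin, was at 28.1, 27.2 and 30.6 CPM in vehicle and at 14.7, 13.0 and 15.0 CPM at the high dose (-1.01 ± 0.13, adjusted p = 3.71e-07). SNAI1, a repressor of CDH1, fell too, by 0.53 ± 0.09 (adjusted p = 7.52e-05). CLDN1, a tight junction protein, rose from 110 ± 1.39 to 149 ± 0.365 CPM (0.44 ± 0.06, adjusted p = 1.57e-07). The list of epithelial and mesenchymal genes had 3 higher and 2 lower of 18 tested. Beside CLDN1 the mesenchymal genes TWIST1 and MMP2 were higher, and the 3 rises ran from 0.40 to 0.82. MMP2 was named after its values were seen, and TWIST1 kept its call in 8 of 15 alternatives. The 3 rises became 1 without high-dose library 1 or 2 or vehicle library 2. Vimentin, the mesenchymal filament gene VIM, was not called (0.16 ± 0.07, adjusted p = 0.232).

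The 4 fibroblast growth factor receptors differed in level and in fold. FGFR3 was at 10.4, 11.9 and 11.6 CPM in vehicle and at 5.16, 4.99 and 4.50 CPM at the high dose (-1.20 ± 0.11, adjusted p = 2.27e-11). FGFR4 was at 79.1 to 88.1 CPM and then 47.4 to 54.9 CPM (-0.71 ± 0.10, adjusted p = 7.67e-07). FGFR1 was at 175 to 184 CPM and then 155 to 159 CPM, a small fall (-0.18 ± 0.06, adjusted p = 0.0388). FGFR2 was under 0.5 CPM and not called (-0.66 ± 0.51, adjusted p = 0.534). The 4 receptors were put together after their values were seen. Among 21 receptor tyrosine kinases and ligands 5 were higher and 4 lower. The risen members included AXL, a receptor of the TAM family (0.37 ± 0.05, adjusted p = 5.12e-08), and the growth factor VEGFC (0.64 ± 0.08, adjusted p = 4.35e-08). NOTCH3, a receptor of another family, was at 74.8 to 82.9 CPM and then 37.5 to 51.2 CPM (-0.78 ± 0.14, adjusted p = 6.89e-05). H19, an imprinted non-coding RNA, was at 86.3, 83.0 and 93.7 CPM and then at 49.9, 48.0 and 40.1 CPM (-0.93 ± 0.11, adjusted p = 1.38e-08).

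Some cholesterol genes fell by small amounts. Of 25 genes of synthesis and uptake, 8 were lower and 0 higher, with a median log2 fold of -0.17. HMGCS1, the synthase at the entry of the pathway, was at 202, 207 and 200 CPM in vehicle and at 147, 151 and 160 CPM at the high dose, without overlap. Its mean went from 203 ± 3.46 to 153 ± 6.77 CPM (-0.41 ± 0.07, adjusted p = 5.24e-05).

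NRF2 targets, which KEAP1 loss keeps high in this line, had 0 higher and 4 lower of 28. The 4 became 1 without high-dose library 1 or any 1 vehicle library, and 2 without high-dose library 3. The glutathione peroxidase gene GPX2 had the largest fall, from 223 ± 18.3 to 152 ± 18.3 CPM (-0.55 ± 0.13, adjusted p = 0.00492), while NQO1 was not called (0.16 ± 0.11, adjusted p = 0.477). The heat shock gene HSPA1A fell from 360 ± 21.8 to 254 ± 35.7 CPM (-0.50 ± 0.10, adjusted p = 0.000332). Its near-identical copy HSPA1B may share its reads. Of 18 interferon-stimulated genes 0 were higher and 3 lower. That count was 1 without high-dose library 2 or vehicle library 3.

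Genes of the cell cycle and of several housekeeping machines were not called. None of 32 DNA replication and G1/S genes, 30 mitosis and G2/M genes, 34 cytosolic ribosomal proteins, 27 proteasome subunits, 25 splicing factors and 37 nuclear respiratory chain subunits passed edgeR's threshold. Replication and mitosis genes had folds from -0.19 to 0.21 and from -0.25 to 0.15. Ribosome biogenesis had 6 of 26 higher and 0 lower, which was 3 without high-dose library 2. MYC, which is also counted in the immediate-early list, was 1 of the 6. Mitochondrially encoded genes had 2 of 15 higher, which was 0 without that library or vehicle library 1 and 1 without vehicle library 2 or 3. The 2 genes were MT-CO2 and MT-ATP8, and MT-ATP8 was also not called by edgeR without high-dose library 3 (adjusted p = 0.124). Of 25 p53 targets 4 were higher and 0 lower, and the death receptor gene TNFRSF10B rose by 0.34 ± 0.06 (adjusted p = 6.57e-05). The others were SESN2 and GDF15, which are also counted in the ATF4 and CHOP list, and PLK3. PLK3 kept its call in 9 of 15 alternatives.

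The low dose of Yijung-tang was the second reference. Between these doses 852 of 17268 genes were called (4.93%), 456 higher (2.64%) and 396 lower (2.29%) at the high dose. The 852 calls became 344 with the 6 libraries fitted alone and 1942 with the length balance as covariate. For 83 genes (0.481%) the difference was at least 1 on the log2 scale. CXCL8 was at 1.09 to 1.20 CPM at 20 µg/mL, and the log2 fold of high over low dose was 2.56 ± 0.20 (adjusted p = 8.12e-13). LY6K (2.38 ± 0.29, adjusted p = 6.93e-08), EGR1 (1.82 ± 0.18, adjusted p = 4.16e-10) and CDCP1 (1.60 ± 0.16, adjusted p = 2.56e-10) followed. KRT4 (-1.93 ± 0.14, adjusted p = 6.73e-14), ARRB1 (-1.46 ± 0.12, adjusted p = 3.41e-12) and FGB (-1.21 ± 0.07, adjusted p = 4.82e-18) were lower at the high dose. The high-dose libraries are the same in both comparisons, so the values are not independent. In the ATF4 and CHOP list 14 of 28 were higher than at the low dose, in the ERK feedback list 11 of 18, and in the immediate-early list 8 of 15. UQCRFS1P1 was already at 4.06 to 5.37 CPM at the low dose, and high and low dose were not separated (0.17 in log2, adjusted p = 0.898). CITED4 was at 12.8 to 14.7 CPM at the low dose and was likewise not called (0.65 in log2, adjusted p = 0.205), although it was with the length balance as covariate (adjusted p = 0.0150).

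The medium dose of 100 µg/mL was not tested here against vehicle or the high dose, and its levels are given as a description for genes picked after their values were seen. STC2 was at 83.4, 89.1 and 86.0 CPM at the medium dose, above each high-dose library. FOSB was at 11.3 to 16.1 CPM and NR4A1 at 85.9 to 87.5 CPM, where the high dose had 3.90 to 4.94 and 45.1 to 46.6 CPM. COL1A1 was at 12.3 to 13.0 CPM, below each high-dose library. NT5E was at 28.8 ± 2.37, 43.5 ± 1.64 and 72.2 ± 2.17 CPM from low to high dose, and KRT4 at 28.7 ± 5.17, 10.8 ± 1.46 and 7.48 ± 0.941 CPM. HNF4A was at 58.1 ± 1.23 CPM at the medium and 53.9 ± 5.31 CPM at the high dose, and CDH1 at 14.7 ± 1.56 and 14.2 ± 1.11 CPM.

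**Figure D5:**
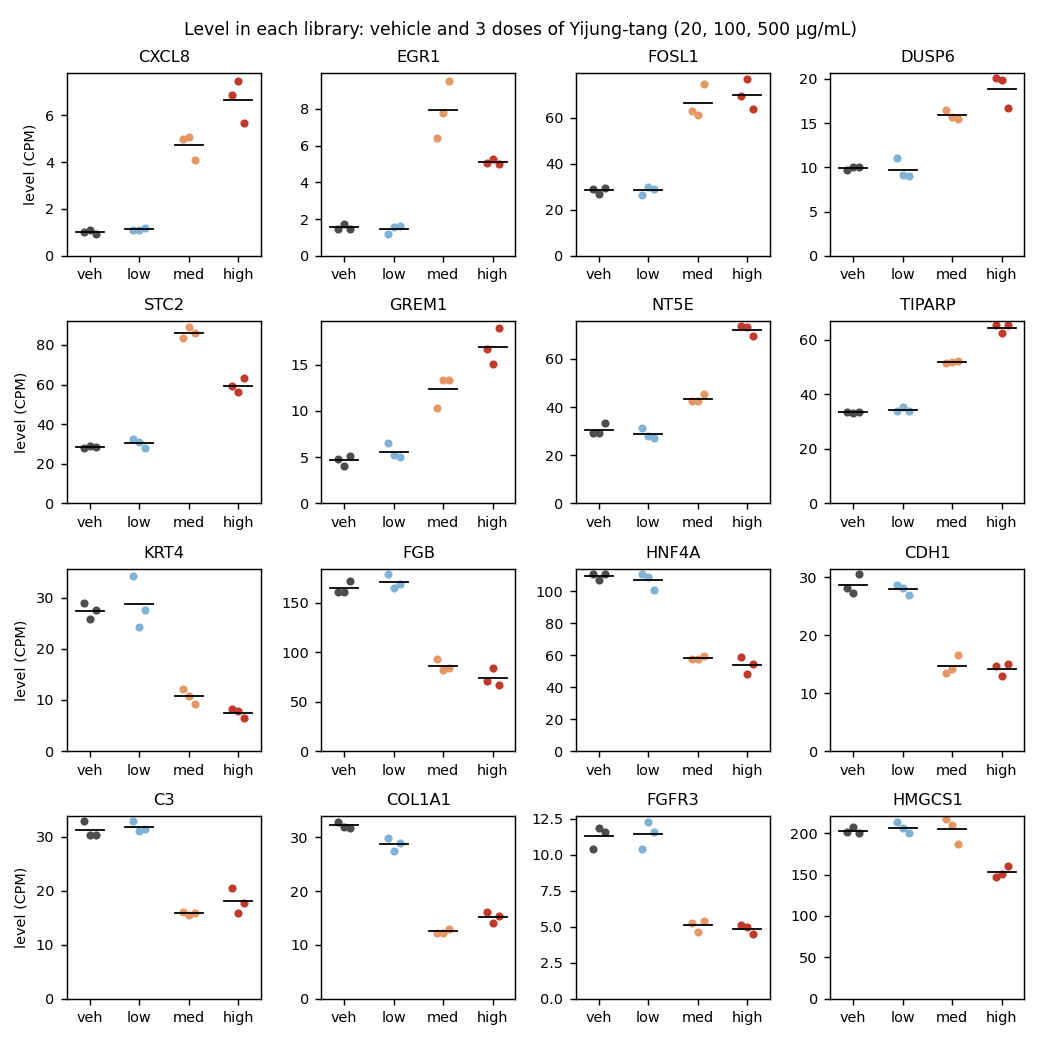
Level in CPM (y axis, from 0) of 16 genes in each of the 3 libraries (points) of vehicle and of 20, 100 and 500 µg/mL Yijung-tang (x axis), with the group mean as a line. Low-dose points lie near vehicle, NT5E and TIPARP climb with the dose, and EGR1 and STC2 are highest at the medium dose.

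Banhasasim-tang at the same dose served to ask which levels differ between 2 mixtures. Of 17268 genes 828 were called (4.79%), 449 higher (2.60%) and 379 lower (2.19%) in Yijung-tang. A log2 difference of 1 or more was found for 67 genes (0.388%). The 828 calls became 354 with the 6 libraries fitted alone, 485 with no low-count filter and 1855 with the length balance as covariate. They numbered 459 without Yijung high-dose library 2 and 509 without Banhasasim library 2. EGR1 was at 1.24, 1.28 and 1.3 CPM in Banhasasim-tang, below every vehicle library, and the log2 fold of Yijung-tang over it was 2.00 ± 0.19 (adjusted p = 1.52e-10). NT5E was at 31.2 to 31.4 CPM (1.21 ± 0.08, adjusted p = 1.22e-15). C3 was at 47.8, 47.2 and 50.1 CPM, above every vehicle library, where Yijung-tang had 15.8 to 20.5 CPM (-1.43 ± 0.15, adjusted p = 1.13e-09). Of ERK feedback genes 13 of 18 were higher in Yijung-tang and 0 lower, and of ATF4 and CHOP targets 13 of 28 were higher and 0 lower. Of 25 NF-kB and inflammatory genes 1 was higher and 3 were lower. CXCL5 was at 138 to 149 CPM in Banhasasim-tang (-0.03 ± 0.05, adjusted p = 0.772), and CXCL8 at 4.27 to 5.19 CPM (0.50 ± 0.18, adjusted p = 0.0987). CXCL8 was called when the library of another extract was left out of the shared model (adjusted p = 0.0393). CXCL1, named after its values were seen, was at 4.75 to 5.27 CPM against 1.81 to 2.03 CPM (-1.39 ± 0.21, adjusted p = 1.09e-05). Of 8 aryl hydrocarbon receptor targets 2 were higher in Yijung-tang and 0 lower. The 2 were TIPARP and ALDH3A1, with log2 folds of 0.54 to 0.57. CYP1A1 and CYP1B1 were not called between the mixtures, with log2 folds of 0.21 ± 0.19 (adjusted p = 0.616) and -0.13 ± 0.10 (adjusted p = 0.558).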

How the data were processed

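Per the labels' protocols, strand-marking MGIEasy libraries were prepared from RNA of integrity above 7 and sequenced as 100 bp pairs. The build was GRCh38 and the counter RSEM 1.3.3, after STAR 2.7.3a, per the submitters' processing notes, which also name Trim Galore 0.6.5. The annotation release and strand setting are not given in the sources used here, so antisense and overlapping genes are uncertain. The authors deposited expected counts per gene as RSEM estimates them, without normalization. Fractional values made up 9.37% of those used. The table had 269 sample columns, of which 60 matched this series and 209 were not used.

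Expected counts were rounded. An edgeR 4.0.16 quasi-likelihood model (R 4.3.3) with TMM scaling, the default low-count filter and Benjamini-Hochberg adjustment over 17268 genes was fitted to 57 libraries in 19 groups of 3, which share 1 estimate of the spread (38 residual degrees of freedom, biological coefficient of variation 10.1%). The standard error of a log2 fold is its size over the square root of F. CPM are counts over the TMM-scaled library size, and not per length. Gene positions are from GENCODE 29, and promoter windows from RefSeq on GRCh38.p14.

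Named genes were the 12 largest rises and 12 largest falls with an adjusted p up to 0.05, a mean of at least 5 CPM in the higher group, no overlap between groups and a symbol that is not a clone, LINC or locus name, plus up to 4 called members of each of 45 lists by adjusted p. For the other 2 comparisons the number was 6 in each direction. Some genes that the rule names are not reported here. Genes outside the rule are marked or are list members that were not called. The members and lists were chosen with earlier results of these data known. Alternatives were DESeq2 1.42.0, RLE size factors, no filter, a robust fit, the length balance as covariate, mitochondrially encoded genes removed, a fit of 6 libraries, the replicate number as block, a shared model without the library of Citri (another extract) at the medium dose that had the lowest length balance, and leaving out each library. The script was tested on simulated data.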

Additional observations from a re-analysis of the deposited data

Results flagged for a closer look

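The high doses of Yijung-tang and Banhasasim-tang differed from each other by a direct test, which put 828 genes past edgeR's adjusted p of 0.05. The largest differences in log2 of Yijung-tang over Banhasasim-tang, by the rule for named genes, were higher for LY6K (2.04), EGR1 (2.00), NT5E (1.21), CDCP1 (1.20), MARCHF4 (1.16) and GREM1 (1.14). They were lower for KRT4 (-1.47), C3 (-1.43), ANKS4B (-1.35), SLC23A1 (-1.18), ARRB1 (-1.02) and FGB (-1.01).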

How the results depend on the processing

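Of the 24 leading genes, CITED4 alone lost its call, without high-dose library 2, over 9 alternative settings and 6 libraries left out in turn. Against vehicle the 1225 calls became 2763 with the length balance as covariate, 816 with no low-count filter, 622 with the 6 libraries alone, and 741 to 1402 with a library left out. Between high and low dose the 852 calls became 1942 with that covariate and 344 with the 6 libraries alone. Between Yijung-tang and Banhasasim-tang the 828 calls became 1855 with that covariate, 485 with no filter, 354 with the 6 libraries alone, and 459 to 1037 with a library left out. A fit of 6 libraries has fewer samples, and elsewhere the cause was not tested. The high over low value of UQCRFS1P1, not called, ran from -0.009 (without high-dose library 1, a change of sign) to 0.320 with a library left out. Without the filter 45.3% of calls were higher, against 53.1%.

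Deviations of same-numbered high-dose and vehicle libraries from their group means had correlations of 0.41, -0.21 and -0.41. For libraries of unlike number they ran from -0.57 to 0.59. Because high-dose library 2 stood apart in length balance, these values cannot decide whether equal numbers mark pairs. With the replicate number as block 1242 genes were called. Of 125 named genes 33 lost their call with the 6 libraries alone, 18 with no filter, 23 without high-dose library 2 and 2 with DESeq2, and none changed sign. Genes near 1 CPM have few reads per library, which limits their folds.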
